A study of Homo sapiens with 22 samples.

Results

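The comparison set 3 RNA-seq libraries of alpha-synuclein cells given 6-hydroxydopamine (6-OHDA) together with rutin against 4 libraries of the same cells left untreated, 7 of the 22 libraries of the series. The 7 were chosen by their titles, which name the treatment. The cells were differentiated LUHMES, an established human mesencephalic line that can be turned into post-mitotic neurons with dopaminergic features, and they overexpressed alpha-synuclein, the main protein of Lewy bodies. Both groups carry that overexpression. Further kinds of library served as context: alpha-synuclein cells with 6-OHDA alone (4 libraries), alpha-synuclein cells with 6-OHDA and quercetin (3), wild-type cells untreated (4) and wild-type cells with 6-OHDA (4). The design text says that the compounds were tested for protection of the neurons. How alpha-synuclein was driven, whether the line is 1 clone, and the doses, times and vehicle of 6-OHDA and rutin are not stated in the labels. None of the 22 libraries had rutin without 6-OHDA, so the comparison holds the toxin and rutin together.

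6-OHDA is a dopamine analogue that oxidises readily and yields hydrogen peroxide and reactive quinones. Cells exposed to such stress usually switch on several programmes. NRF2, held in check by KEAP1 until electrophiles modify that partner, turns on enzymes of glutathione and thioredoxin metabolism. The kinases of the integrated stress response slow translation and let ATF4 and DDIT3 be made, the unfolded protein response raises chaperones of the endoplasmic reticulum through ATF6, XBP1 and EIF2AK3, and p53 turns on CDKN1A and death genes of the BCL2 family. Rutin is a plant flavonol glycoside, quercetin carrying the disaccharide rutinose. The question taken here is which of these programmes still stood apart from untreated cells when rutin was present.

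Counts per library ran from 8107063 to 20667106 in the untreated group and from 2590806 to 8538583 in the rutin group. No label says that replicates were separate cultures. The p-values therefore reflect only how far these libraries scatter, which may be technical. The untreated libraries were on lane 1 and the rutin libraries on lane 2, per the library names, so lane and treatment cannot be told apart in this comparison. Wild-type cells offer 6-OHDA against untreated within lane 1, and rutin against 6-OHDA alone lies within lane 2. On the first principal component of log2 CPM (counts scaled to the size of each library), which held 40.8% of the variance, the untreated alpha-synuclein libraries lay at -64.6 to -53.5 and the rutin libraries at 38.4 to 45.3. Replicate 4 of the libraries with 6-OHDA alone stood apart at -1.5, while the other 3 lay at 38.1 to 40.8. That library was also the deepest of its group, with 18607226 counts against 2520764 to 5409218 in the other 3. Untreated replicates 3 and 4 carry 4 barcode numbers each in their names, and all other libraries 1. Most direct differences from 6-OHDA alone that are named are given with and without 6-OHDA replicate 4. The share of mitochondrially encoded mRNAs was 1.02% ± 0.27 (SD, n = 3) with rutin and 1.06% ± 0.14 (SD, n = 4) in untreated cells (exact permutation test, two-sided p = 0.91, where 0.057 is the smallest p that 3 against 4 allows).

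**Figure D1:**
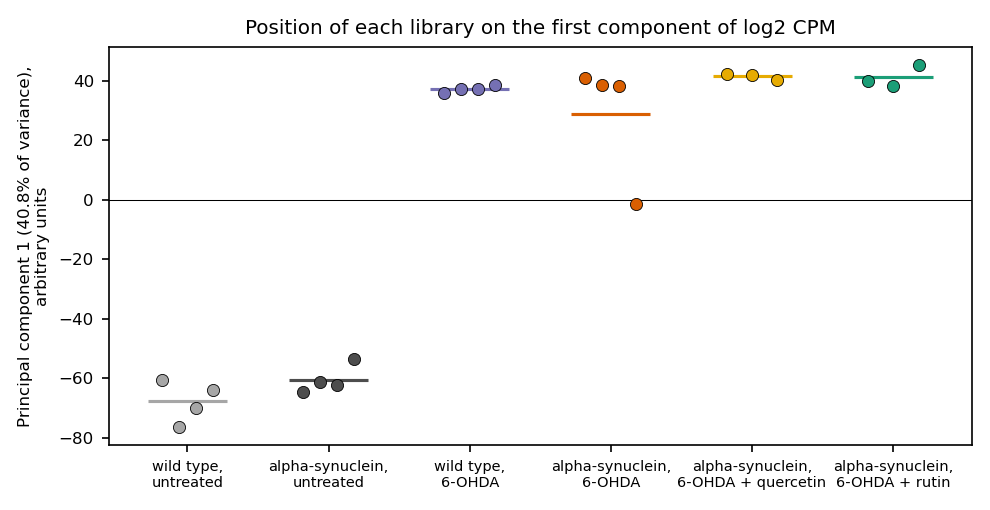
Position of each of the 22 libraries (points) on the first principal component of log2 CPM, in arbitrary units, by group, with bars at group means. The 3 rutin libraries lie at 38.4 to 45.3, beside the wild-type and quercetin libraries with 6-OHDA, and replicate 4 with 6-OHDA alone lies at -1.5.

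The rutin libraries differed from untreated cells across a large part of the transcriptome. Of 16601 genes tested, 4217 were higher (25.4%) and 4256 lower (25.6%) with 6-OHDA and rutin than in untreated cells, in edgeR's quasi-likelihood test at a Benjamini-Hochberg adjusted p under 0.05. At a change of at least 2-fold, 2020 were called higher (12.2%) and 1245 lower (7.5%). For 8960 genes (54.0%) the libraries of both groups did not overlap. The median log2 fold change of all tested genes was 0.05. When libraries were scaled by their total counts alone, without TMM, that median moved to 0.40 and the split became 7256 higher and 2370 lower, so 75.4% of called genes were higher in place of 49.8%. Changes below are on the TMM scale, relative to that of most genes. Counts of called list members below are to be read beside the shares of all tested genes, 25.4% higher and 25.6% lower.

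Wild-type cells share no library with this comparison and gave a response of like breadth: 6-OHDA alone called 4277 genes higher (25.8%) and 4357 lower (26.2%) there. Of the genes called higher with 6-OHDA and rutin in alpha-synuclein cells, 2478 were also called higher by 6-OHDA in wild-type cells, 58.8% of the first list and 57.9% of the second. Of those called lower, 2755 were shared, 64.7% and 63.2% of the lists. Opposite calls were made for 298 genes, and for 6 where both changes had to reach 2-fold. With 6-OHDA alone, alpha-synuclein cells had 3799 genes higher (22.9%) and 4021 lower (24.2%), against the same untreated libraries. Of the 2027 genes (12.2%) raised at least 2-fold by 6-OHDA in wild-type cells, 1430 (70.5%) were called higher with rutin in alpha-synuclein cells, and 1014 of 1337 genes (8.05% of those tested) lowered at least 2-fold (75.8%) were called lower. The wild-type 2-fold genes had median log2 fold changes of 1.5 in wild-type cells, 0.97 in alpha-synuclein cells with 6-OHDA alone and 1.11 with rutin added (raised genes), and of -1.34, -0.77 and -0.95 (lowered genes). The last pair of medians in each series share the untreated alpha-synuclein libraries. These genes were picked by their wild-type values, which favours large changes there, so the wild-type medians cannot be set against the others. Over all tested genes the quartiles were -0.46 and 0.64 for 6-OHDA in wild-type cells. With rutin in alpha-synuclein cells they were -0.45 and 0.62.

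**Figure D2:**
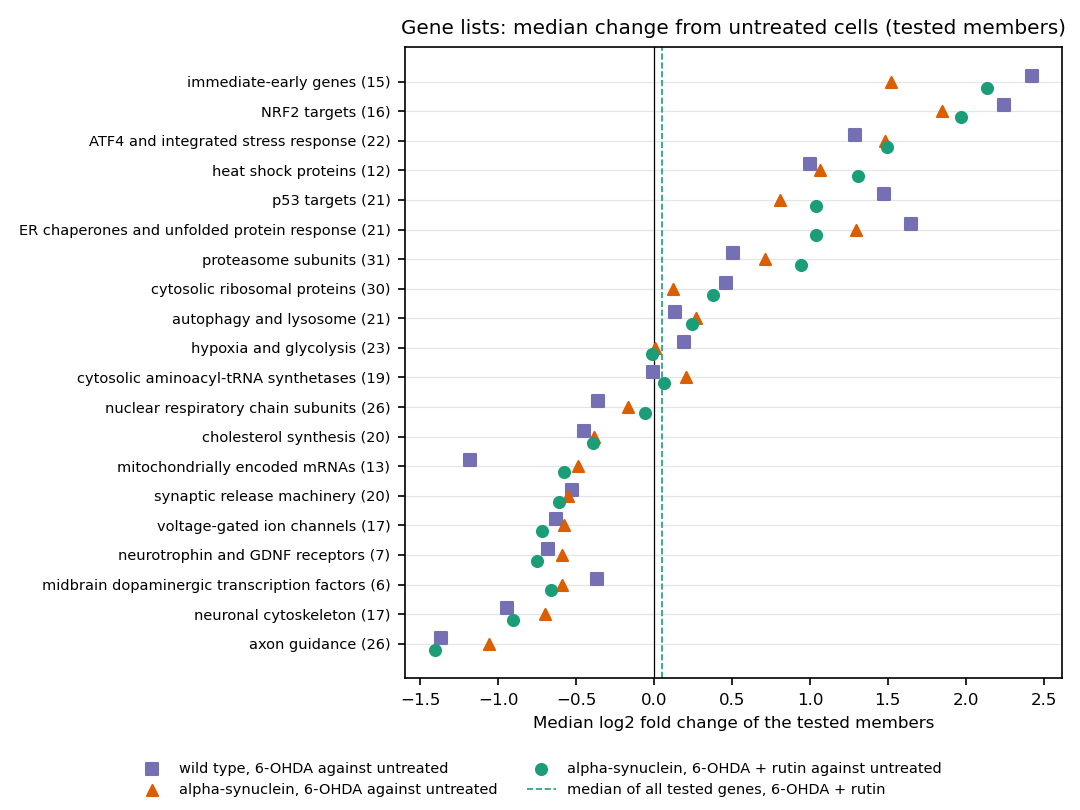
Median log2 fold change from untreated cells of the tested members (number in parentheses) of 20 gene lists, in wild-type cells with 6-OHDA (squares), alpha-synuclein cells with 6-OHDA alone (triangles) and with 6-OHDA and rutin (circles). The dashed line is the median of all genes with rutin, 0.05. With rutin, immediate-early genes and NRF2 targets lie near 2.14 and 1.97 and axon guidance genes at -1.41.

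Targets of NRF2 stood far above untreated cells with rutin present. Of 16 tested, 15 rose and 1 fell, against 25.4% and 25.6% of all tested genes, and their median log2 fold change was 1.97 (0.05 over all genes). HMOX1, heme oxygenase, which opens the heme ring and frees iron (ENSG00000100292.17, chromosome 22, 35380361 to 35394214, GRCh38), was at 1.14, 0.207, 0.615 and 0.457 CPM in the 4 untreated libraries and at 75.4, 47.3 and 75.9 in the 3 with rutin. Every rutin library lay above every untreated one, and the log2 fold change was 6.91 ± 0.47 (SE, adjusted p = 2.0e-10). In untreated replicate 2 HMOX1 was at the level of 3 counts, 0.207 CPM, and untreated values were low throughout. The size of that fold is therefore uncertain. With 6-OHDA alone HMOX1 was at 62.1, 50.97, 53.8 and 14.3 CPM, replicate 4 being the lowest, so the rutin libraries lay within or above that range. NQO1, the quinone reductase (ENSG00000181019.13, chromosome 16, 69706996 to 69726951), had 13.4, 13.6, 21.1 and 16.7 CPM in untreated, 196, 239, 304 and 315 in 6-OHDA and 278, 324 and 254 in rutin libraries. The untreated group did not overlap the others, and rutin libraries overlapped those of 6-OHDA alone (log2 fold change from untreated 4.12 ± 0.17, adjusted p = 2.3e-13).

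The glutathione arm of the same list moved with it. GCLM, the modifier subunit of the enzyme that makes gamma-glutamylcysteine, was at 8.33 to 10.3 CPM in untreated and 89.0 to 99.04 CPM in rutin libraries (log2 fold change 3.28 ± 0.14). SLC7A11, the cystine importer that feeds that pathway, was at 7.14 to 16.1 and 199 to 215 CPM (4.22 ± 0.23). Its partner SLC3A2 rose by 2.28. In the thioredoxin arm TXNRD1, thioredoxin reductase, had 214, 268, 253 and 235 CPM in untreated, 747, 764, 815 and 724 in 6-OHDA and 849, 826 and 869.7 in rutin libraries. All 3 rutin libraries were above all 4 with 6-OHDA alone, by a log2 fold change of 0.15 that did not pass the test (adjusted p = 0.48). SRXN1, which repairs oxidised peroxiredoxins, rose by 2.14.

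Iron and ferroptosis genes rose more often than they fell. FTH1, the ferritin heavy chain that stores iron and that has many processed pseudogenes, rose by 1.71 on the log2 scale, and so did TFRC, the transferrin receptor that brings iron in (2.86, at 23.3 to 25.5 CPM in untreated and 164 to 189 CPM in rutin libraries). In 6-OHDA replicate 4 TFRC was at 60.3 CPM against 153 to 191 CPM in the other 3. ACSL4, which loads membranes with oxidisable fatty acids, fell (-0.98). Of 14 iron-handling genes 7 rose and 2 fell, and of 9 ferroptosis-control genes 5 rose and 2 fell. MT1X, a metallothionein that binds zinc and copper and one of a family of near copies, rose by 3.13; 2 of 5 tested genes of that list rose. Scaling by total counts left each of these lists with more members higher than lower.

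Genes of the integrated stress response were also higher. Of 22 tested genes of ATF4 and its targets, 17 rose and 1 fell, with a median log2 fold change of 1.49. DDIT3, the C/EBP homologous protein that couples this response to cell death (ENSG00000175197.12, chromosome 12, 57516588 to 57521737), had 17.3, 19.8, 17.7 and 16.6 CPM in untreated, 105, 110.2, 113 and 109 in 6-OHDA and 111, 113 and 114.1 in rutin libraries. Its reads can be shared with AC022506.1, a gene model inside it. The treated groups lay together, well above the untreated libraries (log2 fold change 2.66 ± 0.08, adjusted p = 2.4e-16). ATF3, another early factor of this response, rose by 3.97, the glutathione-degrading enzyme CHAC1 by 2.58, the secreted glycoprotein STC2 by 2.98 and DDIT4, an inhibitor of mTORC1, by 2.44. PSAT1, PSPH and SHMT2, of serine and one-carbon metabolism, and the amino acid carrier SLC7A5 did not pass (log2 fold changes 1.03, 0.12, 0.12 and 0.53). With scaling by total counts all 4 were called higher, and with a minimum count of 50 all but SHMT2. After thinning of the libraries to the shallowest PSAT1, SHMT2 and SLC7A5 passed, PSAT1 also without untreated replicate 1. SLC7A5 also passed with the replicate number as a block and without untreated replicate 2 or 4 or 6-OHDA replicate 4. VLDLR, a lipoprotein receptor, fell by 1.12. Cytosolic aminoacyl-tRNA synthetases, several of which ATF4 can raise, were split. Of 19 tested 4 rose (2 without the untreated libraries of 4 barcodes), among them GARS (0.75). Another 5 fell (2 without rutin replicate 1), among them KARS (-0.28). Over all tested genes 25.4% rose and 25.6% fell. Under scaling by total counts 12 synthetases were higher, none lower, and KARS stood at 0.06, not called. KARS was not called with a minimum count of 50 or after thinning either.

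CEBPB, a basic leucine zipper factor that the design text names beside quercetin, gave one of the clearest separations (ENSG00000172216.5, chromosome 20, 50190734 to 50192689). It was at 3.14, 3.03, 4.13 and 3.03 CPM in untreated, 50.5, 58.5, 54.5 and 45.0 in 6-OHDA and 42.7, 49.8 and 55.99 in rutin libraries. The treated groups overlapped and no untreated library came near them (log2 fold change with rutin 3.86 ± 0.16, adjusted p = 2.3e-13; 3.93 with 6-OHDA alone and 5.27 with 6-OHDA in wild-type cells). CEBPG rose by 1.56 from scattered untreated values of 9.05 to 50.6 CPM, and CEBPD was not called (-0.22).

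Of 21 tested genes for endoplasmic reticulum chaperones and the unfolded protein response, 16 rose with rutin present and none fell. XBP1, the factor activated by unconventional splicing of its mRNA (ENSG00000100219.16, chromosome 22, 28794555 to 28800597), had 157, 173, 165 and 177 CPM in untreated, 414, 387, 395 and 496 in 6-OHDA and 397, 429.9 and 401 in rutin libraries. The rutin libraries lay inside the 6-OHDA range (log2 fold change from untreated 1.28 ± 0.08, adjusted p = 5.6e-11). ERN1, the sensor that splices it, rose by 2.07, and EDEM1, which takes misfolded glycoproteins for degradation, by 1.62. HERPUD1, an adaptor of that degradation, had 109.7, 123.4, 108 and 113 CPM in untreated, 393, 444, 375 and 597 in 6-OHDA and 341, 363 and 355 in rutin libraries. Each rutin library lay below each 6-OHDA library, and replicate 4 was the highest of the latter. The median log2 fold change of the list from untreated was 1.04 with rutin and 1.30 with 6-OHDA alone, which share the untreated libraries. Set directly against 6-OHDA alone the median was -0.28, with 3 of 21 members higher and no gene called by edgeR, and it was -0.08 without replicate 4. Over all tested genes the direct median was -0.01. DESeq2 called HERPUD1 lower (log2 fold change -0.37, adjusted p = 0.036), but not without replicate 4 (adjusted p = 0.08).

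Some promoters of this list hold the ER stress element, through which ATF6 and XBP1 act. The element was searched as CCAAT, any 9 bases, then CCACG, on both strands, in RefSeq promoters (GRCh38.p14, 250 bases before to 50 after each gene's start), where it stood in 6 of 20 list genes with a promoter (30.0%) and in 25 of 27305 genes of the table (0.0916%). These stretches are shown because XBP1 and PDIA6, a disulfide isomerase, were called higher, whereas CALR, the calcium-binding chaperone calreticulin, was not. Capitals mark the element, which CALR holds on the opposite strand.
XBP1, chr22:28800598-28800661, minus strand: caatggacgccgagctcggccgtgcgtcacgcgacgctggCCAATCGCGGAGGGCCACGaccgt
PDIA6, chr2:10812845-10812911, minus strand: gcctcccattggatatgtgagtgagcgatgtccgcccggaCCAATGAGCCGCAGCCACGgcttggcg
CALR, chr19:12938359-12938442, plus strand: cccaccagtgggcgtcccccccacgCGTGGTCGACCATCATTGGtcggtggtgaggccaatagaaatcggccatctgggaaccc
PDIA6 rose by 0.80 on the log2 scale (adjusted p = 0.0016), while CALR had a log2 fold change of 0.36 (adjusted p = 0.058). The other holders were HSP90B1, the reticulum's HSP90, which was called higher (1.35), and CANX and CRELD2, which were not (0.24 and -0.10). The holders were thus called in 3 of 6 cases and the list as a whole in 16 of 21. CALR was near the threshold and was called higher with RLE size factors, total counts, a minimum count of 50, thinning or only the samples of both groups. It was also called with the replicate number as a block and without rutin replicate 3 or 6-OHDA replicate 4. CANX was called with total counts. The antioxidant element TGACNNNGC, searched the same way, stood in 3 of 11 NRF2 targets with a promoter (27.3%) and in 16.1% of genes. It was not particular to that list, standing in 7 of 18 genes of the ATF4 list (38.9%) and 6 of 20 of the reticulum list (30.0%). TXNRD1 was one of the 3 NRF2 targets, and its element is in capitals.
TXNRD1, chr12:104215640-104215728, plus strand: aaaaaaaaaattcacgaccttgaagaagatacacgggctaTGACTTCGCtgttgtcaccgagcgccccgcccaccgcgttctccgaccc
The C/EBP-ATF element TGATGNAAT stood in 0 of 18 genes of the ATF4 list and in 1.22% of genes. A match is a run of letters in these windows and was not tested as a binding site.

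Heat shock genes, most of them for cytosolic proteins, were nearly all higher. Of 12 tested heat shock genes 11 rose and none fell (median 1.31). HSP90AB1, the constitutive cytosolic HSP90, which also has many pseudogenes, had 70.9, 66.0, 74.8 and 72.3 CPM in untreated, 365, 312, 281 and 151 in 6-OHDA and 321, 326 and 352 in rutin libraries. Without replicate 4 the 6-OHDA libraries covered the rutin range (log2 fold change with rutin 2.23 ± 0.18, adjusted p = 1.9e-09). BAG3, which hands clients to autophagy, rose by 1.37, HSPH1, an exchange factor for HSP70, by 1.36, and the mitochondrial chaperonin HSPD1 by 1.72. The one exception was HSPA4L (-0.01).

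Of 31 tested proteasome subunits 25 rose and none fell, by a median of 0.94. PSMD14, the lid subunit that removes ubiquitin chains, had 5.43, 8.95, 4.53 and 8.29 CPM in untreated and 38.98, 33.8 and 42.3 in rutin libraries, with no overlap (log2 fold change 2.47 ± 0.24, adjusted p = 2.8e-08). Core subunits PSMB4 (1.31) and PSMA5 (1.07) and the ATPase PSMC1 (0.99) rose by less. Autophagy and lysosome genes were mixed, with 7 of 21 higher and 4 lower (14 and 2 with scaling by total counts). Over all tested genes 25.4% were higher and 25.6% lower. In the autophagy list SQSTM1, the cargo receptor p62, had 150.3, 128, 129.8 and 127 CPM in untreated and 671, 701 and 663 in rutin libraries, a log2 fold change of 2.35 ± 0.11. GABARAPL1, of the phagophore, rose by 2.27 and ATG5 by 0.89.

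p53 targets stayed high as well: 15 of 21 rose and 1 fell, median 1.04. CDKN1A, the inhibitor of cyclin-dependent kinases p21 (ENSG00000124762.13, chromosome 6, 36676460 to 36687339), had 22.3, 18.5, 19.1 and 21.7 CPM in untreated, 278, 275, 250.5 and 113.5 in 6-OHDA and 288, 257 and 354 in rutin libraries. Replicate 4 alone pulled the 6-OHDA group down, and the rutin libraries lay within or above the range of the other 3 (log2 fold change from untreated 3.88 ± 0.22, adjusted p = 2.5e-11). GDF15, a secreted stress cytokine, had 2.43, 0.964, 1.73 and 0.971 CPM in untreated, 30.6, 33.02, 42.1 and 22.3 in 6-OHDA and 45.9, 48.3 and 49.3 in rutin libraries. All 3 rutin values lay above all 4 of 6-OHDA alone, a direct log2 fold change of 0.60 (95% interval 0.20 to 1.01, adjusted p = 0.25, 0.44 without replicate 4). GADD45A rose by 1.92. TP53I3, a quinone oxidoreductase, fell by 1.01, and TP53INP1, RRM2B, XPC, BTG2 and TIGAR were not called.

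Among BCL2 family genes 5 of 13 rose and 3 fell, against 25.4% and 25.6% of all tested genes. The pro-death BH3-only gene PMAIP1 (NOXA) had 5.14, 7.64, 7.54 and 8.17 CPM in untreated, 55.8, 58.5, 60.9 and 28.7 in 6-OHDA and 72.2, 68.1 and 73.8 in rutin libraries. Every rutin library was above every 6-OHDA library, with replicate 4 lowest (log2 fold change from untreated 3.29 ± 0.19; directly 0.51, adjusted p = 0.29, and 0.29 without replicate 4). BBC3 (PUMA) rose by 1.59 and the pore-former BAX by 1.02. HRK, a BH3-only gene of neurons, went the other way. It had 71.2, 91.7, 72.0 and 77.3 CPM in untreated, 46.2, 56.7, 51.5 and 84.9 in 6-OHDA and 39.96, 40.6 and 38.5 in rutin libraries, and the rutin values were below all others (log2 fold change from untreated -0.97 ± 0.15, adjusted p = 1.2e-05; directly -0.61, adjusted p = 0.17 in edgeR and 0.0085 in DESeq2). Replicate 4 was the highest of the 6-OHDA libraries, and without it the direct value was -0.36 (adjusted p = 0.29 in edgeR, none given by DESeq2); without 6-OHDA replicate 1 edgeR called it lower.

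Immediate-early genes had the highest median of the lists, 2.14, with 11 of 15 higher and 1 lower. FOS, a subunit of AP-1 (ENSG00000170345.10, chromosome 14, 75278774 to 75282230), had 0.143, 0.413, 0.503 and 1.03 CPM in untreated, 15.5, 19.4, 15.5 and 6.64 in 6-OHDA and 19.1, 20.0 and 22.7 in rutin libraries. Untreated levels were at or near the level of 3 counts, 0.168 to 0.429 CPM in those libraries, and all treated libraries were clear of them (log2 fold change 5.10 ± 0.34, adjusted p = 1.5e-10). FOSB rose by 4.77 and FOSL1 by 2.59. KLF4 rose by 5.55, but it was at 0 CPM in untreated replicate 1, so the size of that fold is uncertain. MYC fell by 0.55, a call lost with total counts, a minimum count of 50 or thinning and without rutin replicate 1, untreated replicate 3 or the untreated libraries of 4 barcodes, and JUND, IER2 and KLF6 were not called. Genes that damp ERK signalling were split. SPRY4 fell by 2.49 on the log2 scale (untreated 67.1 to 94.4 CPM, rutin 14.1 to 17.5 CPM), the ERK phosphatase DUSP6 fell by 2.77 and SPRY1 fell by 1.63. Of 12 tested MAPK feedback genes 6 fell and 3 rose, but 3 fell and 4 rose with scaling by total counts. Of 8 axon injury genes 4 rose and 3 fell, the latter with the axonal kinases MAP3K13 (-1.36) and MAP3K12 (-0.72), which relay injury signals to JUN.

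Inflammatory lists rose in part. Of 10 NF-kappaB genes 6 rose and none fell, with RELB at 1.02, NFKB2 at 1.35 and REL at 0.63. Of 11 interferon and MHC class I genes 5 rose and none fell. IRF1 led them with 1.29, 0.689, 1.01 and 1.14 CPM in untreated and 11.1, 11.6 and 16.1 in rutin libraries (3.63 ± 0.27). B2M, the MHC class I light chain, had 3.29, 7.99, 6.202 and 11.2 CPM in untreated, 14.0, 12.6, 16.2 and 8.63 in 6-OHDA and 20.2, 23.1 and 32.9 in rutin libraries. Its rutin values were above all others, though the direct log2 fold change of 0.99 was not called (adjusted p = 0.22; 0.80 without replicate 4). Hypoxia and glycolysis genes divided, 10 of 23 higher and 5 lower (15 and 2 with scaling by total counts): EGLN3, an oxygen-sensing hydroxylase, rose by 3.59 and VEGFA by 0.83, while the glucose carrier SLC2A1 fell (-0.79).

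Aldo-keto reductases, which reduce aldehydes and ketones, were of interest because the design text sets the name AKR13C beside rutin; that it stands for AKR1C3 is not settled by the sources used here. AKR1C3 (ENSG00000196139.14, chromosome 10, 5035354 to 5107686) had 0.714, 0.689, 0.894 and 1.31 CPM in untreated, 0.831, 1.08, 1.88 and 1.19 in 6-OHDA and 2.08, 2.14 and 1.05 in rutin libraries. The groups overlapped, and the log2 fold change of 1.01 ± 0.44 did not pass (adjusted p = 0.059 in edgeR). It did pass with scaling by total counts, with the replicate number as a block and without rutin replicate 3 or untreated replicate 4. AKR1C genes are near copies of one another, so their shares of reads are uncertain. Of 8 family members tested 2 rose, AKR1A1 (0.51) and AKR1C2 (0.81), and AKR7A2 fell (-1.06), against 25.4% and 25.6% of all tested genes. AKR1C2 was not called without the untreated libraries of 4 barcodes. Of 4 aryl hydrocarbon receptor targets 2 rose, NQO1 and TIPARP (1.46), and CYP1B1, a classical target, fell (-1.83, not called without rutin replicate 2).

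On the lowered side were TH and most members of several neuronal lists, while genes of dopamine handling as a list were split. In bulk RNA fewer cells of a type and less RNA per cell cannot be told apart. TH, tyrosine hydroxylase, which makes the dopamine precursor (ENSG00000180176.14, chromosome 11, 2163929 to 2171877), had 419, 321, 323 and 331 CPM in untreated, 83.9, 71.8, 46.8 and 66.6 in 6-OHDA and 63.3, 49.3 and 75.2 in rutin libraries. The treated groups overlapped throughout and both lay far below the untreated one (log2 fold change -2.50 ± 0.17, adjusted p = 1.5e-10). DRD2, the dopamine autoreceptor, had 163, 154, 118 and 146 CPM in untreated, 91.4, 91.9, 85.5 and 110.4 in 6-OHDA and 70.5, 60.7 and 79.8 in rutin libraries. The 3 groups did not overlap (log2 fold change -1.06 ± 0.13; directly -0.45, adjusted p = 0.19 in edgeR and 0.029 in DESeq2, and -0.36 without replicate 4, adjusted p = 0.39 in edgeR and none given by DESeq2). GCH1, which starts synthesis of the cofactor of TH, rose by 2.76. Of 10 tested genes of dopamine handling 2 rose and 4 fell (4 and 3 with scaling by total counts; 2 fell without rutin replicate 1 or 2). DDC, the next enzyme after TH, was at only 1.43 to 2.43 CPM in untreated cells.

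Of 6 tested midbrain dopaminergic transcription factors 4 fell and 2 rose. OTX2 fell by 1.07 on the log2 scale and EN1 fell by 0.72, while NR4A2 (NURR1), also an early-response gene, rose by 0.84. Of 7 receptors for neurotrophins and GDNF 4 fell and none rose. RET, the signalling receptor for GDNF, had 122.7, 78.9, 109 and 75.3 CPM in untreated, 28.1, 14.4, 22.1 and 20.0 in 6-OHDA and 22.6, 25.8 and 12.2 in rutin libraries, so both treated groups lay together under the untreated one (log2 fold change -2.17 ± 0.23). Its co-receptor GFRA1 fell too (-1.64).

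Of 12 tested synuclein and familial Parkinson disease genes 3 rose and 4 fell, against 25.4% and 25.6% of all tested genes. UCHL1, a neuronal ubiquitin hydrolase, rose (0.40). SNCG, gamma-synuclein (-1.07), and ATP13A2, a lysosomal transporter (-0.89), fell. Scaling by total counts gave 5 higher and 3 lower.

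Axon guidance genes had the lowest median of the lists, -1.41, with 18 of 26 lower and 2 higher. NCAM1, the neural cell adhesion molecule (ENSG00000149294.16, chromosome 11, 112961247 to 113278436), had 3218, 3059.9, 2809.6 and 2673 CPM in untreated, 798, 951, 707 and 1497 in 6-OHDA and 673, 600.4 and 731 in rutin libraries. 6-OHDA replicate 4 lay between the other treated and the untreated libraries (log2 fold change -2.14 ± 0.17, adjusted p = 1.6e-09). The netrin receptor DCC fell by 2.85 on the log2 scale, the semaphorin co-receptor PLXNA4 by 4.39, the Slit receptor ROBO1 by 1.41 and the axonal adhesion protein CNTN2 by 2.29. NCAM2, a relative of NCAM1, had 18.6, 24.0, 18.1 and 17.5 CPM in untreated, 1.66, 2.15, 1.17 and 2.95 in 6-OHDA and 0.733, 0.107 and 1.05 in rutin libraries. The rutin libraries were the lowest, none above 1.05 CPM (log2 fold change from untreated -5.24 ± 0.39). The direct log2 fold change was -2.09 (adjusted p = 0.16 in edgeR, -1.66 without replicate 4), called lower without 6-OHDA replicate 1 or 3. In the rutin libraries 3 counts are 0.367, 0.322 and 1.05 CPM, so NCAM2 lay near that level there and both folds are uncertain in size. SLIT2 (0.43, not called in DESeq2, without a filter or after thinning, nor without rutin replicate 1 or 3, untreated replicate 1 or 3 or the untreated libraries of 4 barcodes) and EPHB1 (1.04) were the members that rose.

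The neuronal cytoskeleton followed, 13 of 17 lower and 2 higher, median -0.90. DCX, doublecortin, which bundles microtubules of young neurons, had 2572, 3175, 2421 and 2459.7 CPM in untreated, 949, 1075, 917 and 1619 in 6-OHDA and 941, 804 and 895 in rutin libraries, and replicate 4 with 6-OHDA alone was again nearest to untreated (log2 fold change -1.59 ± 0.15). MAP2 fell by 1.44 and TUBA1A, one of several alike alpha-tubulin genes, by 1.95 on that scale. NEFH, the heavy neurofilament, rose by 1.03 and TUBB3 by 0.26 (the latter not in DESeq2 or without a filter, nor without rutin replicate 2 or 3, untreated replicate 2 or 3 or the untreated libraries of 4 barcodes), and both were present in every library. Synaptic release genes (13 of 20 lower, 1 higher) fell with CPLX2 (-1.61), RAB3A (-1.29) and SYT4 (-2.53). Voltage-gated channels (12 of 17 lower, 3 higher) fell with SCN9A (-1.93), CACNA1A (-1.03) and SCN3B (-0.92). These 4 lists kept more members lower than higher with scaling by total counts (18 and 2, 12 and 3, 9 and 4, 11 and 3). Of 9 neuropeptide genes 3 rose and 2 fell.

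Metabolic lists were less uniform. Of 13 mitochondrially encoded mRNAs 7 fell and none rose (median -0.58), for instance MT-CYB, of complex III (-0.64), and MT-ND5, of complex I (-0.60). No member was called with scaling by total counts, 2 were lower without rutin replicate 2 and 11 without rutin replicate 3. Nuclear respiratory chain genes were 5 higher (3 without rutin replicate 1 or 3) and 9 lower of 26, with complex I subunits on either side: NDUFV1 (-0.79) fell, NDUFA4 (1.15) and NDUFV2 (1.11) rose. With scaling by total counts 14 were higher and 6 lower, so this list's direction turned with the scale. Cholesterol synthesis genes were 11 lower and 2 higher of 20 (4 and 4 by total counts; 6 lower without rutin replicate 2 or without the untreated libraries of 4 barcodes). DHCR7, which makes cholesterol from its last precursor, had 357, 321, 343 and 346 CPM in untreated and 139, 110.1 and 150.1 in rutin libraries (-1.37 ± 0.10), and LSS fell with it (-1.10). INSIG1, which holds back that pathway, rose by 1.35. Of 30 cytosolic ribosomal protein genes, whose reads are shared with pseudogenes, 21 rose and 1 fell (median 0.38).

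The largest single changes, among called genes of at least 5 CPM in a group whose libraries did not overlap, held genes beyond the lists. FAM114A1 had 0, 0, 0.168 and 0.171 CPM in untreated and 8.55, 10.6 and 10.5 in rutin libraries, and with 3 counts at most in an untreated library no fold is given. DIO3, the deiodinase that inactivates thyroid hormone, was at 0 to 0.224 CPM in untreated and 6.35 to 6.86 CPM in rutin libraries, and NPPC, C-type natriuretic peptide, at 0 to 1.60 and 21.8 to 24.5 CPM. No library of one group overlapped the other. GADD45B, a stress-induced partner of GADD45A, rose by 4.42. On the lowered side ELAVL4, a neuronal RNA-binding protein, fell by 4.20, the adhesion molecule ALCAM by 3.36 and LHX9, a LIM homeobox factor, by 3.36 on the log2 scale. ALCAM had 309.8, 408, 286 and 261 CPM in untreated, 34.4, 45.9, 25.6 and 88.2 in 6-OHDA and 36.8, 20.8 and 36.7 in rutin libraries, with replicate 4 the highest of the treated.

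**Figure D3:**
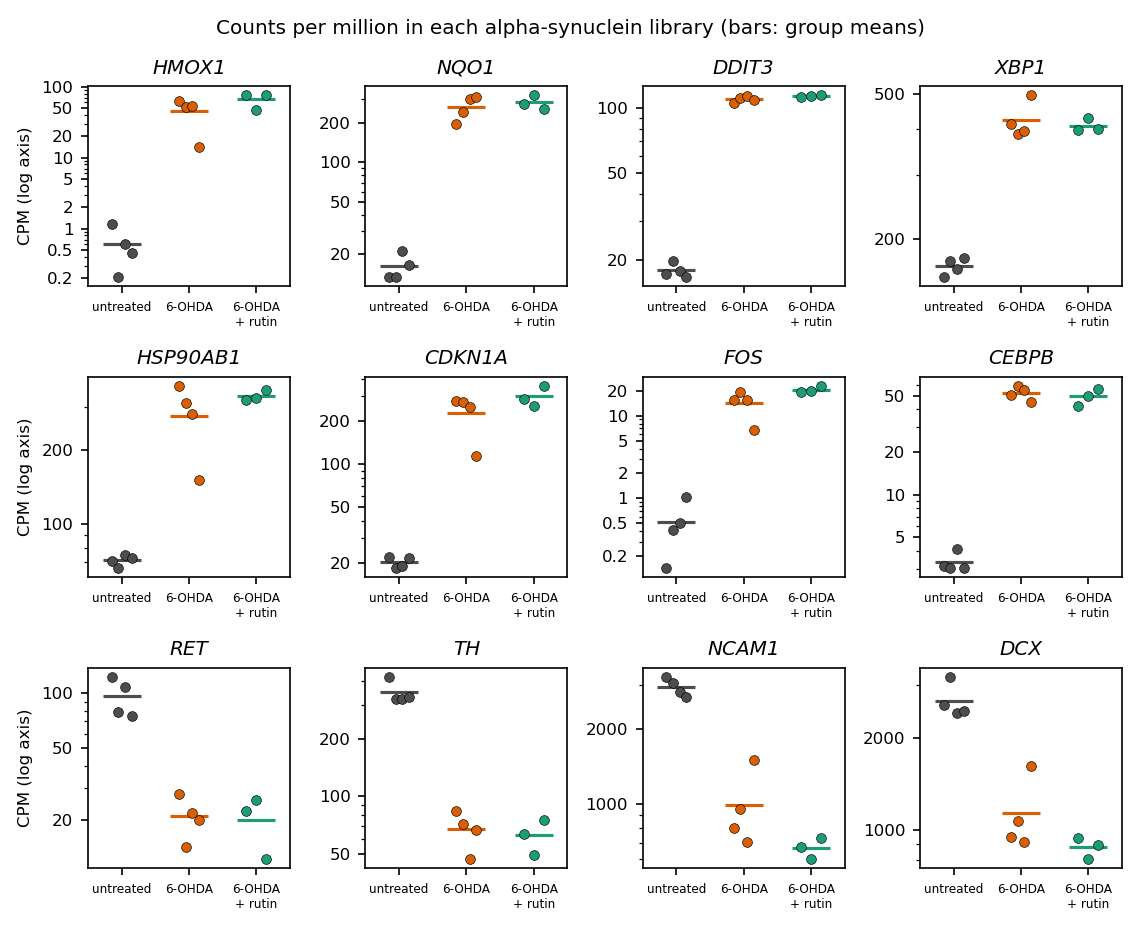
CPM of 12 genes (log axes) in each alpha-synuclein library, untreated (4 points), with 6-OHDA (4) and with 6-OHDA and rutin (3), with bars at group means. The genes of the upper rows are higher and those of the bottom row lower in both treated groups than in untreated cells, and the rutin points lie beside those of 6-OHDA, apart from replicate 4 in several panels.

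What differed with rutin was tested directly against 6-OHDA alone, within lane 2. No gene was called (0 of 16601, 0.0%) by edgeR's quasi-likelihood test, while 1790 genes (10.8%) had an unadjusted p under 0.05, 1444 (8.7%) had libraries that did not overlap, and DESeq2 called 27 higher and 262 lower. Leaving out 6-OHDA replicate 4 gave 0 calls in edgeR and, in DESeq2, 45 higher and 73 lower. Leaving out 6-OHDA replicate 1 called 12 higher and 131 lower, replicate 3 called 2 higher and 39 lower, and replicate 2 none. For 12300 genes (74.1%) the 95% interval of the difference lay within 2-fold either way. For the other genes the interval reached a 2-fold difference or beyond, and the test does not show that the groups are alike.

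That interval lay within 2-fold for 13 of 16 NRF2 targets, 18 of 22 genes of the integrated stress response, 16 of 21 of the reticulum list, 9 of 12 heat shock genes and 9 of 15 immediate-early genes, against 74.1% of all genes. DDIT3 differed by 0.05 on the log2 scale between rutin and 6-OHDA alone (95% interval -0.10 to 0.20), XBP1 by -0.05 (-0.22 to 0.12), CEBPB by -0.07 (-0.37 to 0.22) and NQO1 by 0.12 (-0.21 to 0.44). Without 6-OHDA replicate 4 these 4 values were 0.05, 0.04, -0.15 and 0.22. HMOX1 had a wider interval, -0.09 to 1.25, around 0.58, and 0.23 without replicate 4. TH differed by -0.13 (-0.47 to 0.21; -0.14 without replicate 4). Some of the differences grew smaller without that library: NCAM1 went from -0.57 to -0.29, DCX from -0.38 to -0.16 and CDKN1A from 0.39 to 0.16. NCAM1 was called lower than in 6-OHDA alone by DESeq2 with that library (adjusted p = 0.019) and without it (adjusted p = 0.038), and by edgeR only without 6-OHDA replicate 1 or 3. In the wild-type 2-fold genes the direct medians were 0.16 (raised) and -0.16 (lowered), and 0.01 and 0.00 without replicate 4. RPLP0, a ribosomal stalk protein, kept its difference of 0.51 (0.54 without replicate 4). It had 451, 338, 471 and 459.7 CPM with 6-OHDA and 601, 735 and 499 with rutin, all 3 of the latter being higher. Its adjusted p was 0.17 in edgeR and 0.0091 in DESeq2 (0.0087 without replicate 4). RPLP0 was not alone in its list. The direct median of the 30 cytosolic ribosomal protein genes was 0.26 (0.28 without replicate 4), with 27 higher and 0 called by edgeR. Over all tested genes the direct median was -0.01. Other lists leaned the same way, with 12 of 12 heat shock, 26 of 31 proteasome and 17 of 21 p53 genes higher. Without replicate 4 the medians of those lists were 0.10, 0.12 and 0.16. Axon guidance genes leaned the other way, with 6 of 26 higher.

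**Figure D4:**
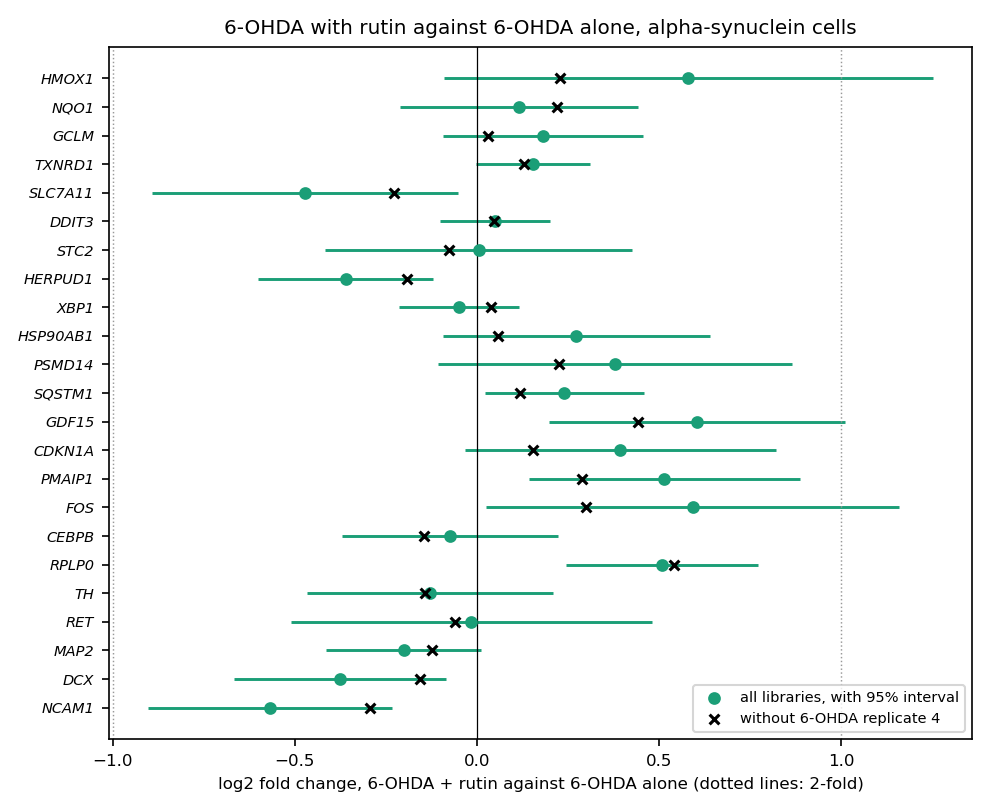
log2 fold change of 23 genes between 6-OHDA with rutin and 6-OHDA alone (points, with 95% intervals) and the same without 6-OHDA replicate 4 (crosses); dotted lines mark 2-fold. None was called, and the crosses of NCAM1, DCX, CDKN1A and HMOX1 lie nearer to 0 than the points.

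In some named genes of low counts the rutin libraries lay outside both other groups. SEMA6B, a transmembrane semaphorin, had 6.43, 21.5, 1.51 and 15.6 CPM in untreated, 0.997, 7.54, 13.9 and 20.0 in 6-OHDA and 0.489, 0.429 and 0.350 in rutin libraries. The rutin libraries were the lowest of all, all under 1 CPM, and the other groups were scattered (log2 fold change from untreated -4.64 ± 1.09, adjusted p = 0.0012; directly -4.62, adjusted p = 0.16, and -3.97 without replicate 4, but called without 6-OHDA replicate 1). In the rutin libraries 3 counts are 0.367, 0.322 and 1.05 CPM. SEMA6B thus lay near or under that level there, and all of these folds are uncertain in size. TOP2A, a topoisomerase of dividing cells, had 1.00, 0.275, 1.29 and 0.229 CPM in untreated, 0, 0, 0.705 and 0.227 in 6-OHDA and 2.93, 1.93 and 1.75 in rutin libraries. Its rutin values lay above the rest, but the rise of 1.72 (adjusted p = 0.042) was lost in DESeq2 and without rutin replicate 1, 2 or 3, untreated replicate 2 or 4 or the untreated libraries of 4 barcodes. Of 16 cell cycle genes TOP2A was the 1 that rose, while MCM5 (-0.63) and CCNB1 (-0.58) fell; neither was called without rutin replicate 1 or without the untreated libraries of 4 barcodes. CCNB1 was not called with a minimum count of 50, after thinning or without rutin replicate 3 or untreated replicate 3 either, and no gene of this list was called lower with scaling by total counts.

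Quercetin is rutin without its sugar, and the 3 libraries with quercetin and 6-OHDA gave a second comparison within lane 2; the labels do not state whether doses and times matched. Of 16601 genes 1 was called (0.00602%), SNCG, gamma-synuclein, while DESeq2 called 42 higher and 78 lower with rutin. SNCG was at 27.1, 31.5 and 28.7 CPM with quercetin and 64.6, 54.8 and 51.1 with rutin, and the log2 fold change of 0.97 ± 0.14 (adjusted p = 0.01) separated the groups. The call was lost without quercetin replicate 1 or 3 or rutin replicate 1. Without 6-OHDA replicate 4, which is in neither group but enters the filter, the scaling and the shared spread, 28 genes were higher and 30 lower. HMOX1 was at 90.0, 73.4 and 51.6 CPM with quercetin, CEBPB at 46.0, 53.1 and 38.6, and TH at 78.9, 58.9 and 55.7, ranges that overlapped those with rutin given above.

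Markers of other cell types were counted as well. Summed astrocyte markers (7 genes) ran from 46.7 to 70.3 CPM in untreated and from 57.7 to 84.1 CPM in rutin libraries, so the groups overlapped, though with scaling by total counts they did not (40.3 to 60.9 and 63.7 to 91.9 CPM). Of 5 tested 1 was called higher (none without rutin replicate 2 or 3 or untreated replicate 1 or 2). Microglia and blood markers (8) summed to 5.44 to 7.2 and 9.97 to 14.7 CPM, with HBB at 0 in both groups and AIF1 and ITGAM at 0 in untreated libraries. Fibroblast and endothelial markers (8) summed to 22.7 to 25.7 and 16.8 to 25.4 CPM, none called. Oligodendrocyte lineage markers (8) summed to 125 to 159 and 43.9 to 56.3 CPM. Of 6 tested 1 was called higher and 3 lower, OLIG1 (-2.37), OLIG2 (-1.15) and MBP (-1.54). OLIG1 and OLIG2 are also made by neural progenitors. The part of these cell type markers in the results above was not tested.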

How the data were processed

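Poly(A) RNA was sequenced from 22 libraries in 6 groups. Estimated counts per gene were deposited by the authors as 1 table; per the submitters' processing notes, reads were trimmed with Trimmomatic 0.38 and quantified with kallisto 0.46.2 on GRCh38. Kallisto shares reads among similar transcripts, so near-identical genes (pseudogene families, tubulins, AKR1C) are uncertain. All 22 columns matched a sample.

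Counts were rounded to whole numbers. Genes under the filter on low counts (filterByExpr, minimum count 10) held 0.174% of counts, and 16601 of 34679 genes were tested with edgeR 4.0.16 (R 4.3.3, limma 3.58.1) after TMM scaling: glmQLFit on 6 group means, glmQLFTest, Benjamini-Hochberg adjustment over all tested genes, threshold 0.05. The SE is the absolute log2 fold change divided by the square root of F, and CPM use TMM-scaled library sizes. Positions of 34658 genes came from GENCODE 29, promoters from RefSeq. The fitting code was tested on simulated data.

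The members and the 40 gene lists (534 genes tested) were chosen with earlier results of these data known. Genes named are part of a set of 187: 5 set genes, the 15 largest changes each way, the best-ranked members of each list by adjusted p (4 at most), the 10 largest direct differences (no gene qualified) and the 10 called 2-fold genes each way with most counts. HSP90B1, PDIA6, CALR and members named for not being called or for going against their list were chosen after their values were seen. Some items are not reported here.

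The level of 3 counts, 0.168 to 0.429 CPM in untreated and 0.322 to 1.05 CPM in rutin libraries, covers counting error only. Alternatives were DESeq2 1.42.0, RLE size factors, total counts, other filters, 2 groups only, a replicate block, thinning, and left-out libraries.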

Additional observations from a re-analysis of the deposited data

Results flagged for a closer look

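In groups of 4 libraries, a library was marked where its gap to the nearest other, divided by the range of the group, passed Dixon's 95% critical value; chance marks about 1 in 20 groups. On the first principal component the ratio was 0.936 for the libraries with 6-OHDA alone, replicate 4 standing apart. The same library stood apart in CPM of CDKN1A (0.83) and PMAIP1 (0.844), and replicate 2 in RPLP0 (0.851), among 23 genes tested in that group. Over all tested genes replicate 4 with 6-OHDA stood apart in 643 (3.87%). Replicates 1, 2 and 3 did so in 173 (1.04%), 237 (1.43%) and 145 (0.87%). The 1 in 20 given above is for a mark on any of the 4 libraries, not on 1 named library.

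In the untreated alpha-synuclein libraries 9 of 141 genes were marked. The ratios were 0.899 for TH, where replicate 1 was highest, and 0.896 for CEBPB, where replicate 3 was highest. They were 0.892 for VEGFA, 0.873 for SQSTM1, 0.856 for STC2, 0.846 for OLIG2, 0.839 for HSPD1, 0.836 for MCM5 and 0.832 for NCAM2. All 9 stayed called without each untreated library in turn, and MCM5 was lost without rutin replicate 1.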

How the results depend on the processing

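For rutin with 6-OHDA against untreated cells, DESeq2, RLE size factors, no filter, a minimum count of 50, only the samples of both groups, thinning and the replicate block kept both counts of calls within 1.5 times the reported ones. Scaling by total counts gave 7256 higher and 2370 lower. Leaving out 1 library gave 3579 to 4345 higher and 3679 to 4359 lower, and leaving out the untreated libraries of 4 barcodes 3170 and 3630. Same-numbered untreated and rutin libraries did not deviate together (correlations -0.024, -0.014 and -0.057). No variation shared by number was seen, but this cannot tell whether same-numbered libraries were prepared together. With the replicate number as a block 3933 genes were higher and 4068 lower, and no gene was called against 6-OHDA alone. Among the named genes the block added calls of AKR1C3, CALR and SLC7A5 and left out those of CCNB1, SLIT2, TOP2A and TUBB3.

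Against 6-OHDA alone, DESeq2 called 27 higher and 262 lower (45 and 73 without 6-OHDA replicate 4, an alternative chosen after seeing the data), RLE size factors 2 lower, a minimum count of 50 called 1 lower and no filter 4 lower. Leaving out 1 library gave 0 to 12 higher and 0 to 131 lower. Against quercetin, DESeq2 called 42 higher and 78 lower, a minimum count of 50 called 3 and 4, no filter 4 and 4, the samples of both groups alone 7 and 12, and total counts 6 and 22. Leaving out 1 library gave 0 to 28 higher and 0 to 30 lower. For 6-OHDA alone, total counts gave 6662 higher and 2258 lower in alpha-synuclein cells and 6546 and 2868 in wild-type cells. The cause was not tested, beyond what the settings themselves change.

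Of 141 named genes 131 were called, and KARS changed sign, with a log2 fold change of 0.064 under total counts. Thinning to the shallowest library, of 2590806 counts, left 2965 higher and 3035 lower among 12403 genes, so depth limits the genes of low counts.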

Other observations

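AC022506.1 (ENSG00000285133.1, chromosome 12, 57517712 to 57520480) lies within DDIT3, and the counting could move reads between them. It was at 0 in all 4 untreated libraries, at 7.15, 7.18, 7.05 and 0.965 CPM with 6-OHDA and at 9.04, 3.00 and 9.45 CPM with rutin. The treated groups overlapped and each library of theirs held counts. Against a level of 3 counts in each untreated library it was at least 29.4-fold higher with rutin.

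Progenitor genes did not move as 1 group. Of 6 tested 3 were higher with rutin than in untreated cells: HES1, a repressor downstream of Notch, had 0.286, 0.138, 0.168 and 0.114 CPM in untreated and 1.34, 2.25 and 2.10 in rutin libraries (adjusted p = 5.3e-05, with no fold given, since no untreated library had over 3 counts), PAX6 rose by 0.68 (not called without rutin replicate 3) and MSI1, an RNA-binding protein of neural stem cells, by 1.00. DLL3, a Notch ligand that acts inside the cell, fell (-1.28). The summed level of the 7 progenitor genes in the table was 1119 to 1539.8 CPM in untreated and 908 to 1164 CPM in rutin libraries, overlapping at their edges, and with scaling by total counts the rutin range lay inside the untreated one (1001 to 1272 and 942 to 1333 CPM). Among granule genes VGF, a secreted neuropeptide precursor (1.11), and CHGB, a granule core protein (1.17), rose and ADCYAP1, which encodes the peptide PACAP, fell (-1.66).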
